A study of Mus musculus with 3 samples.

Results

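The Wnt signalling genes examined here are 50 protein-coding genes of the mouse: 18 Wnt ligands, 14 receptors and co-receptors, 9 secreted inhibitors, 3 R-spondins and 6 effectors of the cytoplasm and nucleus. They were chosen by name and not by a measured value, but with earlier results of these data known. They are 50 of the 20661 protein-coding genes on chromosomes 1 to 19. Of the 67237 accessible regions in the data, 257 were assigned to them, because an end of one of these genes was the nearest gene end within 50 kb. At least 1 region was assigned to 46 of the genes, and none to Wnt7a, Sfrp5, Dkk1 and Rspo2. Over all 20661 genes, 15122 had at least 1 region.

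The study concerns heterotopic ossification, in which bone forms outside the skeleton, and the data are ATAC-seq libraries of cells that the labels call mesenchymal stem cells of the mouse. ATAC-seq uses a transposase that cuts and tags open chromatin, so that sequenced ends pile up where DNA is accessible, and a summit is the highest point of such a pile. There was 1 library for each of 3 groups: cells before injury (day 0), immobilized cells of day 7 after injury, and non-immobilized cells of the same day. Strain, genotype, age, sex, the kind of injury, the way of immobilization, how the cells were isolated and whether animals were pooled were not given in the sources used here, and no allele or transgene is named for any group.

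Since each group is 1 library, no difference could be checked against replicates, and no test was run. The libraries held between 143818952 and 176119937 read pairs, of which an estimated 63640194 (day 0), 75269683 (immobilized) and 90136518 (non-immobilized) were aligned and not duplicates. The deposited lists held 51722, 67404 and 47912 summits in the same order, and each was reduced to its 47912 best-scoring summits. This left out 7.37% of the day 0 list, 28.9% of the immobilized list and none of the non-immobilized list. A gene can therefore lack a region in the immobilized library because its summit scored below this limit, and the number of such regions is given with each comparison. A rank is the percent of a library's retained summits that scored better, so that 0% is the best. Absence of a region means that no summit was retained, not that chromatin was closed. Markers of mesenchymal cells were accessible in each library, with 78, 64 and 71 regions of 14 genes at day 0, immobilized and non-immobilized, although Ly6a, which encodes the progenitor marker Sca-1, had 0 in the non-immobilized library. Markers of other cell types differed: 17 endothelial genes had 45, 58 and 93 regions, and 14 keratinocyte genes had 13, 52 and 16.

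Wnt ligands are secreted, lipid-modified proteins that bind Frizzled receptors together with the co-receptors Lrp5 and Lrp6, or with the receptor tyrosine kinases Ror1 and Ror2. In the canonical branch this stops the breakdown of beta-catenin, which enters the nucleus and activates target genes with factors of the TCF/LEF family. Soluble frizzled-related proteins, Wif1 and Dickkopf proteins hold the signal back outside the cell, R-spondins raise the number of receptors, and Axin2 is both a target and a brake of the pathway. In mesenchymal progenitors canonical signalling is known for favouring bone over cartilage and fat formation.

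The sequences at the starts of 5 genes show where retained summits fell, from a window with a summit of each library to one with a summit of a single library. The sequences run 5′ to 3′ on the gene's strand from 250 bases before the annotated start to 30 bases from it on, with the 10 bases on each side of every retained summit in capitals. They are RefSeq sequences of assembly GRCm38.p6. The Axin2 start (chr11:108920099-108920378, plus strand) had a summit in each library, at 9, 11 and 9 bases after the start. The Wnt3 start (chr11:103773925-103774204, plus strand) had a summit only in the immobilized library, 215 bases before the start. In the windows of Wnt9b (chr11:103749792-103750071, minus strand) and Wnt11 (chr7:98834862-98835141, plus strand) the retained summits came from both day 7 libraries and not from day 0, although the whole day 0 list holds a weaker summit in the Wnt11 region. In the Frzb window (chr2:80447367-80447646, minus strand) the only retained summit was that of the non-immobilized library, 206 bases before the start, and the whole immobilized list holds a weaker one in that region. Wnt11 and Frzb each have further regions within 1 kb of a start that were called at day 0 as well.
Axin2: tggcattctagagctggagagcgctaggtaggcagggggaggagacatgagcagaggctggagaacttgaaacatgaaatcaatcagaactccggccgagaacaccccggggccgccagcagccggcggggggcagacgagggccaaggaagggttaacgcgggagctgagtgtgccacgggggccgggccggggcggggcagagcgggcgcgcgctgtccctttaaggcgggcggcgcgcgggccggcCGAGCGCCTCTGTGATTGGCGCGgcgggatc
Wnt3: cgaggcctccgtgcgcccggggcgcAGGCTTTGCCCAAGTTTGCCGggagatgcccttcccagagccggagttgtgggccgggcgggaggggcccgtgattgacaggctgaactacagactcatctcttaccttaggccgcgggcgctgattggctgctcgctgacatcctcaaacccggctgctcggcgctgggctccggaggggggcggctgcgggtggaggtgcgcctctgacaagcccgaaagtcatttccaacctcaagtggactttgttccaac
Wnt9b: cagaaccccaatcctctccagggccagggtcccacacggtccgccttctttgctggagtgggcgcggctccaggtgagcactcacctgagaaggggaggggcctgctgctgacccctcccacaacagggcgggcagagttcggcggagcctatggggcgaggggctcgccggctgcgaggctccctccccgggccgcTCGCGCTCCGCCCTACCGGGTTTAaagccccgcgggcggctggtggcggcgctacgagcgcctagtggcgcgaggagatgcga
Wnt11: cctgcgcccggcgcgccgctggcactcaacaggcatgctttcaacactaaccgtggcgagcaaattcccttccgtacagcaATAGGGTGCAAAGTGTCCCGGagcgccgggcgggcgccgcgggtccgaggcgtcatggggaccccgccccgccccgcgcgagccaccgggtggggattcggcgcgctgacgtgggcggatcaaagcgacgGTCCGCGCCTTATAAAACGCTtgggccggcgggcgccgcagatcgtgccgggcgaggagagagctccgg
Frzb: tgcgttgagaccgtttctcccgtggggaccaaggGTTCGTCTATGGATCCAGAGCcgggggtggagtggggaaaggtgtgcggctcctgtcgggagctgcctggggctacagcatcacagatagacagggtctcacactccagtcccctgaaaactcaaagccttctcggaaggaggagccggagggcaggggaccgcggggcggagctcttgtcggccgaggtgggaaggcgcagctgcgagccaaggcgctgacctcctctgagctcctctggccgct

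The core letters that TCF/LEF factors bind, CTTTGAT or CTTTGTT on either strand, were searched in the full 300-base windows of the promoter table, which reach 50 bases past the start. Of the 50 genes, 36 have an entry there, with 45 windows. One or the other form was present in 6 of the 45 windows (13.3%), in 1 each of Wnt3, Wnt5b, Wnt11, Fzd7, Dkk1 and Tcf7l2, against 9.33% of all 31396 windows. In the sequences above, Wnt3 carries CTTTGTT from base 18 after its start, and Wnt11 carries CTTTGAT on the opposite strand from base 51 before its start. The Axin2 window holds neither form. The GC box GGGCGG, on either strand, was in 77.8% of the windows against 36.0% of all, beside a median GC content of 67.3% against 53.0%. The AP-1 letters TGANTCA were in 4.44% against 7.84%, and TATAAA was in 20.0% against 13.6%. These matches are descriptions of letters and not of bound sites.

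Most of these genes with an annotated start were accessible there in every library. Of the 36, 30 had a region within 1 kb of a start, and in 22 of the 30 every library had one. Those 22 include the 6 Frizzled genes with an entry (Fzd1, Fzd4, Fzd5, Fzd7, Fzd9 and Fzd10), both Ror genes and the 6 effectors. The same count of starts was not made over all genes. Of the regions within 1 kb of a gene end, 59.6% were called in every library, a lower share than the 76.0% for all genes. A start region was called only in the immobilized library for the ligands Wnt3 and Wnt3a and for Rspo1, where the whole day 0 list holds a weaker summit, and only in the non-immobilized library for Sfrp2. Wnt9b and Wnt16 had a start region in both day 7 libraries and none at day 0, while Wnt1 and Dkk2 had one at day 0 and non-immobilized but not immobilized, and for both the whole immobilized list holds a weaker summit near the start. Just past the limit of 1 kb, a Dkk2 region 1.1 kb upstream was called at day 0 and immobilized but not non-immobilized. No region was called within 1 kb of a start of Wnt2, Wnt7a, Wnt8b, Wnt10b, Sfrp5 or Dkk1. Wnt2 had a region called in every library 1.4 kb before its annotated start, which lay 0.9 kb from a gene end. Within the 300-base windows themselves, a summit of any library lay in 48.9% of the 45 windows against 35.6% of all windows, and summits of each library lay in 24.4% against 24.5%.

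Wnt genes carried more regions per gene than protein-coding genes at large, and fewer of those regions were shared. The 46 genes with a region had a median of 5, against 2 over all 15122 genes with a region. Of the 46, 30 had 4 or more regions, against 4920 of the 15122. Of the 257 regions, 96 were called in each library, or 37.4% (exact Clopper-Pearson 95% interval 31.4 to 43.6, which here and below covers counting error only), against 48.4% of all regions assigned to genes. The share was lower than that of all genes at both positions: within 1 kb of a gene end 34 of 57 regions (59.6%, 45.8 to 72.4) were shared against 76.0% for all genes, and farther out 62 of 200 (31.0%, 24.7 to 37.9) against 38.2%. The remaining regions were called only at day 0 (31), only immobilized (41), only non-immobilized (35), at day 0 and immobilized (12), at day 0 and non-immobilized (20) or in both day 7 libraries (22). Shared regions ranked better, with median ranks of 37.9%, 38.0% and 39.9% in the day 0, immobilized and non-immobilized lists, against 80.2%, 82.0% and 81.0% for the regions called in that library alone. Regions called in 1 library thus came mostly from the weak end of each list, as they did over all genes (78.8%, 78.7% and 80.1%). Shared regions of all genes ranked better than those of the Wnt genes, with medians of 29.1%, 29.1% and 29.3%.

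**Figure D1:**
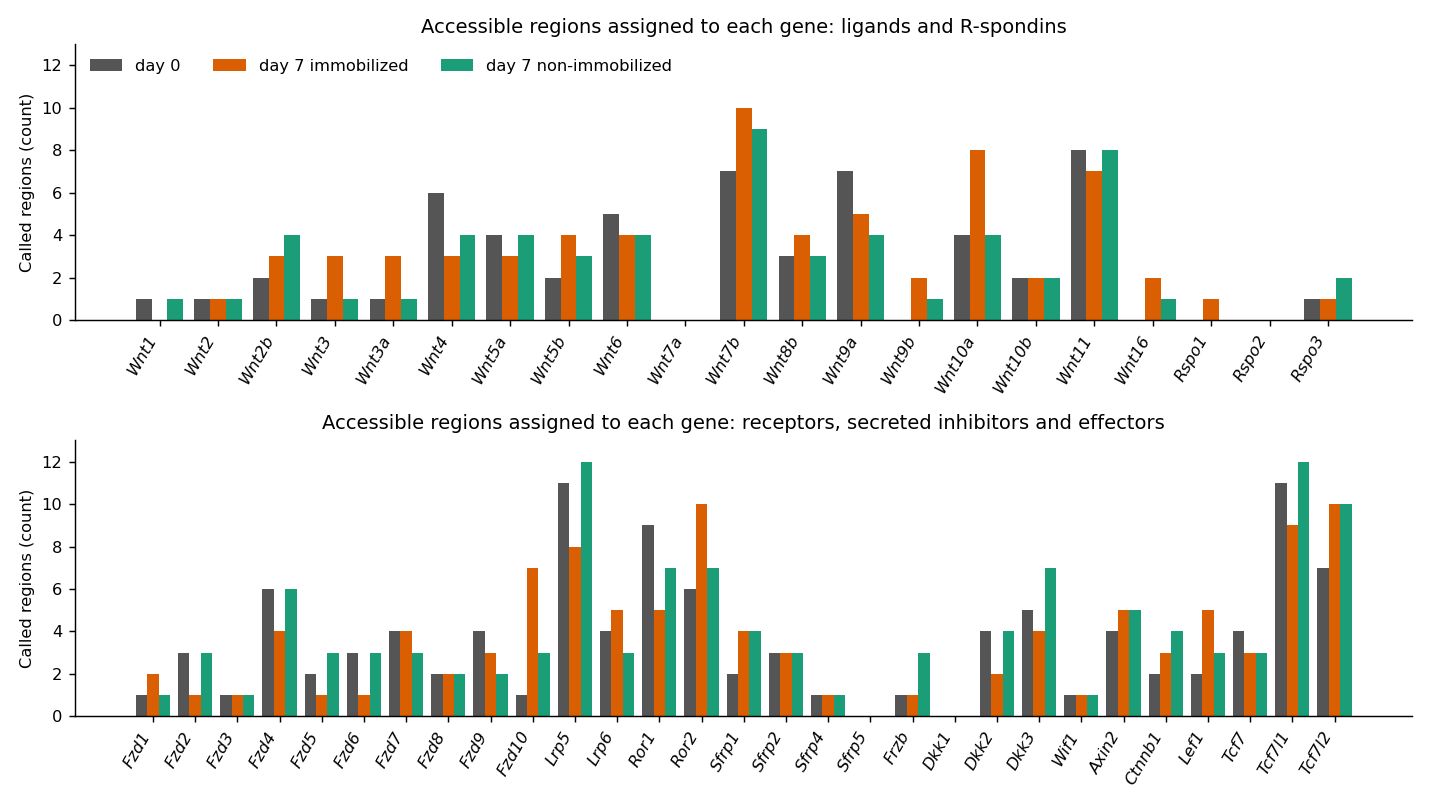
Number of accessible regions (vertical axis, count) assigned to each of the 50 Wnt signalling genes in the day 0, day 7 immobilized and day 7 non-immobilized libraries (1 library a group, no error bars). Lrp5, Tcf7l1, Ror2, Tcf7l2 and Wnt7b have 10 or more regions in at least 1 library, and Wnt7a, Sfrp5, Dkk1 and Rspo2 have none.

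The roles differed in how their regions were spread over the libraries. The ligands had 54, 64 and 55 regions at day 0, immobilized and non-immobilized, of 85 in all. The receptors had 57, 54 and 56 of 87, which is nearly the same number in each library. The secreted inhibitors had 17, 16 and 23 of 32, and the effectors 30, 35 and 37 of 50. The R-spondins had 1, 2 and 2 of 3. Regions called in each library made up 41.2% (30.6 to 52.4) of the ligand regions, 36.8% (26.7 to 47.8) of the receptor regions, 28.1% (13.7 to 46.7) of the inhibitor regions and 38.0% (24.7 to 52.8) of the effector regions. These intervals overlap, and differences between roles were not tested.

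**Figure D2:**
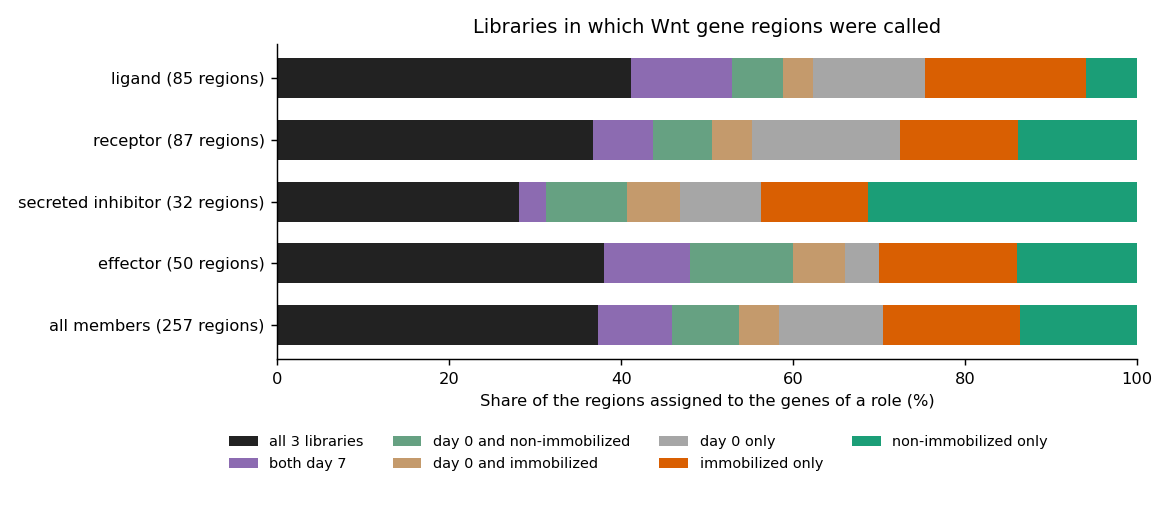
Share (horizontal axis, %) of the regions of ligands, receptors, secreted inhibitors, effectors and all 50 genes that was called in each combination of the 3 libraries; the R-spondins, with 3 regions, are not drawn apart. The share called in every library runs from 28.1% for inhibitors to 41.2% for ligands, and the share called only in the non-immobilized library takes more of the inhibitor bar (10 of 32 regions) than of the ligand bar (5 of 85).

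Among the ligands, Wnt3, Wnt3a and Wnt10a had at least 2 more regions in the immobilized library than in either of the others. Wnt5b, Wnt7b, Wnt8b, Wnt9b and Wnt16 also had their highest count there, each by 1 region over the non-immobilized library. Wnt3, which acts in limb outgrowth and in ectoderm, had 1 region at day 0, 3 immobilized and 1 non-immobilized, and no region was common to all 3 libraries. Its start region ranked 56.4% in the immobilized library and was absent from the others, and a second region 1.9 kb upstream ranked 99.0%, next to the end of that list. Wnt3a, a canonical ligand of the early embryo, had 1, 3 and 1: the region called in every library lay inside the gene and ranked 57.6%, 52.2% and 51.6%, and the pair called only in the immobilized library ranked 84.8% and, at the start, 89.8%. Wnt10a, known for its part in teeth, hair and skin, had 4, 8 and 4 regions. Each library shared the same 4, and the other 4 were called only in the immobilized library, at ranks of 55.8%, 78.6%, 81.3% and 93.7%. In that order they lay 1.4, 0.5, 1.4 and 2.6 kb from an end of the gene.

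Wnt16 and Wnt9b had no region at day 0. Wnt16, a ligand that acts on bone and joint tissue, had 2 regions immobilized and 1 non-immobilized. The shared one, 0.7 kb after a start, ranked 41.7% immobilized and 82.9% non-immobilized, and the other, 7.9 kb upstream, ranked 44.9% immobilized. Wnt9b, a ligand of kidney and facial development, likewise had 0, 2 and 1 regions. Its start region ranked 53.0% immobilized and 72.8% non-immobilized, while its second region, ranked 98.5%, lies inside Wnt3, since the annotated Wnt9b gene reaches 1.1 kb past the start of Wnt3.

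Wnt7b and Wnt5b also had more regions at day 7. Wnt7b, which promotes bone formation, had 7, 10 and 9 regions, with 6 called in each library, 2 called in both day 7 libraries and 2 only immobilized. The 6 shared ones ranked between 6.75% and 43.3%, so that the added regions (38.1% to 83.6%) were weaker than most of them. Wnt5b had 2, 4 and 3 assigned regions. At a further annotated start of Wnt5b a summit of each library was retained, and at another a summit of day 0. Neither was among the regions assigned to Wnt5b. Wnt2b had 2, 3 and 4. The Wnt2b region called only in the non-immobilized library ranked 84.6%. Wnt5a, the main non-canonical ligand of mesenchyme, had 4, 3 and 4 regions, of which only 1 was common to all libraries, at 5.6 kb beyond a gene end. The region at its gene end ranked 53.4% at day 0 and 85.2% non-immobilized, and its immobilized summit scored below the limit of the equal-length list.

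Wnt4 and Wnt9a had at least 2 more regions at day 0 than in either day 7 library. Wnt4, a ligand of kidney and gonad development that also acts in bone, had 6, 3 and 4 regions. Of its 8 regions 2 were common to all libraries and 3 were called only at day 0, at ranks of 67.7%, 72.5% and 98.2%. Wnt9a, a ligand of joint formation, had 7, 5 and 4, with 4 in every library, 1 at day 0 and immobilized, and 2 only at day 0 (77.1% and 97.4%). Wnt11, a non-canonical ligand, had 8, 7 and 8. The region at its start ranked 84.4% immobilized and 67.9% non-immobilized, and the day 0 list held a summit there that scored below the limit. The other ligands with a region had counts that differed by at most 1: Wnt6 had 5, 4 and 4, Wnt8b 3, 4 and 3, Wnt10b 2, 2 and 2, Wnt2 1, 1 and 1, and Wnt1 1, 0 and 1.

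Some receptor starts were among the best-ranked regions of these genes. The start regions of Fzd1, Fzd4, Fzd5 and Fzd7, which encode Wnt-binding receptors, ranked between 2.7% and 6.86% in every library. Those of Fzd9 (21.7%, 25.7% and 20.5%) and Fzd10, and the regions at a gene end of Fzd6 (48.8%, 35.5% and 28.9%) and Lrp5, ranked lower. Fzd4 had 6, 4 and 6 regions. Its start ranked 2.7% at day 0, 3.48% immobilized and 4.06% non-immobilized, while 3 further regions were called only at day 0 and 2 only non-immobilized, at ranks of 50.8% to 95.2%. Fzd5 had 2, 1 and 3, with the start common to all and every other region called in a single library at 77.1% to 92.2%. Both of its regions called only non-immobilized, and 1 of the 2 of Fzd4, had a weaker summit in the whole immobilized list.

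Fzd10 stood out among the receptors by its counts of 1, 7 and 3. Its start region, 0.3 kb upstream, was called in each library and ranked 45.2% immobilized and 97.7% non-immobilized, with day 0 in between. The 2 regions common to the day 7 libraries lay 42.7 and 21.6 kb upstream, and the nearer ranked 32.5% immobilized and 85.5% non-immobilized. Another 4, at 19.9 and 9.1 kb upstream and 46.5 and 48.6 kb beyond the start, were called only in the immobilized library, at ranks of 54.8% to 86.1%. None of the 6 day 7 regions had a weaker summit in the whole day 0 list. Ror2, a receptor of non-canonical ligands such as Wnt5a, showed the same order with 6, 10 and 7 regions. Its 4 regions called only in the immobilized library lay 22.7 to 44.4 kb beyond the far end of the gene and ranked 37.8%, 66.7%, 93.5% and 98.9%. In the same library the keratinocyte markers Krt5, Krt14, Krt15, Krt17 and Dsg3 had regions and had 0 at day 0 and non-immobilized, and the part of such cells in the Wnt3, Wnt3a, Wnt10a, Fzd10 and Ror2 counts was not tested.

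**Figure D3:**
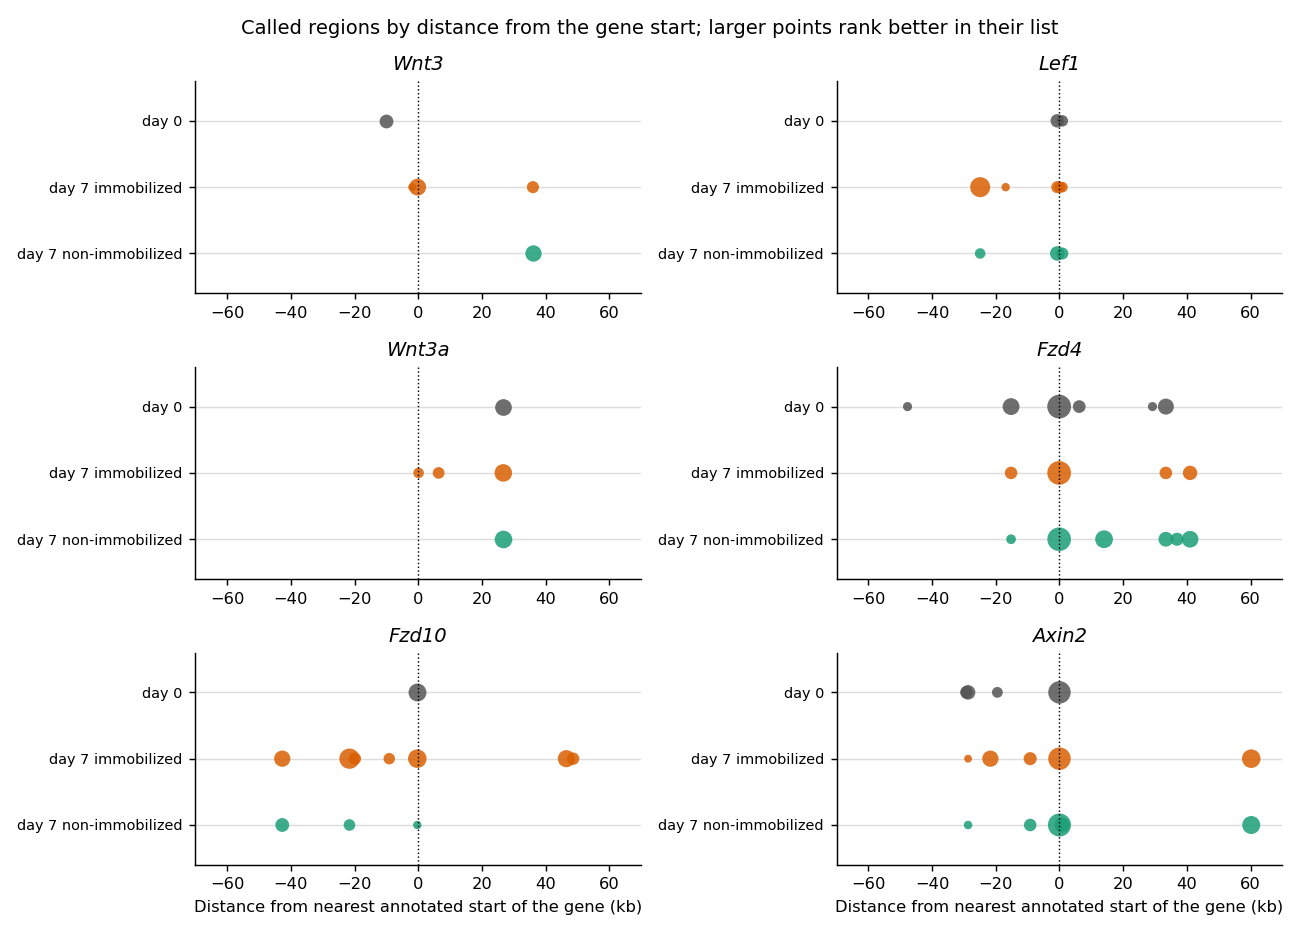
Regions of Wnt3, Wnt3a, Fzd10, Lef1, Fzd4 and Axin2 by distance from the nearest annotated start (horizontal axis, kb, negative upstream), 1 row a library, with larger points for better ranks. Fzd10 has 1 point at day 0 and 7 in the immobilized row, while the Fzd4 start has a large point in each row (ranks 2.7%, 3.48% and 4.06%).

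With equal-length lists and a limit of 50 kb, Ror1 and the co-receptor Lrp5 had fewer regions in the immobilized library. When regions went to the gene that holds them, Ror1 had 4 only non-immobilized and 8 only immobilized. Its immobilized minus day 0 difference was then -4. With the lists as deposited, the Lrp5 difference was 0 for immobilized minus day 0 and 1 for non-immobilized minus immobilized. Ror1 had 9, 5 and 7, of which 5 were common to all and 3 called only at day 0 (63.7%, 75.6% and 96.7%). Lrp5, in which human loss-of-function mutations lower bone mass, had 11, 8 and 12 regions and the largest total, 18. The region at one gene end was called in each library (38.1%, 36.7% and 28.9%), 5 regions inside or beside the gene were called only at day 0 (43.3% to 92.9%) and another 5 only non-immobilized (45.5% to 99.5%). Day 0 and non-immobilized cells had similar totals for Lrp5, but only 5 of its regions were common to both. Lrp6, the second co-receptor, had 4, 5 and 3 with the region at a gene end at 12.4%, 7.72% and 14.8%. Fzd2 and Fzd6 each had 3, 1 and 3, but both regions missing from the immobilized library had a summit in its deposited list that scored below the limit. Fzd9 had 4, 3 and 2 regions, Fzd7 4, 4 and 3, Fzd1 1, 2 and 1, Fzd8 2, 2 and 2, and Fzd3 1, 1 and 1.

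For the secreted inhibitors the non-immobilized library had the most regions. Dkk3, a divergent member of the Dickkopf family, had 5, 4 and 7 regions. Of its 9 regions, 2 were common to all libraries (28.6% to 67.7%) and 2 near a gene end were called non-immobilized alone, at 80.0% and 92.0%, the first with a weaker summit in both other whole lists. Dkk2, a Dickkopf protein that binds Lrp5 and Lrp6, had 4, 2 and 4. Within 2 kb after its start the non-immobilized library had 3 regions (74.1%, 55.3% and 49.9%), day 0 had 1 of them (97.5%) and the immobilized library had 0, with a weaker summit in its whole list for the region ranked 74.1%. Before the start it was the reverse: a region 1.1 kb upstream was called at day 0 (86.8%) and immobilized (83.6%) but not non-immobilized. Frzb, a soluble frizzled-related protein of cartilage, had 1, 1 and 3. The 2 regions called only non-immobilized lay 0.2 and 1.0 kb upstream of its start and ranked 54.7% and 88.8%, and the immobilized list held a summit below the limit next to the nearer one.

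Sfrp1 and Sfrp2, soluble frizzled-related proteins of fibroblasts and other mesenchyme, had different regions in different libraries. Sfrp1 had 2, 4 and 4 regions, with 2 called only immobilized (50.1% and 74.4%) and 2 only non-immobilized (89.7% and 96.4%), and its gene end at 24.6%, 19.6% and 15.6%. Sfrp2 had 3, 3 and 3 regions at 6 positions, of which 1 was common to all libraries. Sfrp4 and Wif1 each had the same single region in every library, close to a gene end, at 31.5%, 33.5% and 44.3% for Sfrp4 and 27.3%, 26.7% and 22.9% for Wif1. Of the R-spondins, Rspo3, which is made by stromal and endothelial cells, had 1, 1 and 2 regions, and Rspo1 had 0, 1 and 0, with a rank of 59.2% at its start and a weaker summit there in the whole day 0 list. Endothelial markers also had their highest count in the day 7 non-immobilized library (45, 58 and 93 regions). Of the 17 endothelial genes, 11 had at least 2 more regions non-immobilized than immobilized, among them Pecam1 and Cdh5, genes of endothelial junctions. By the same limit 1 gene, Vwf, went the other way. The part of such cells in the inhibitor counts was not tested.

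Each of the 6 effectors had a region within 1 kb of a start in every library. For Lef1 such regions were weak, at 0.9 and 0.7 kb from a start with ranks of 70.8% to 89.1%. The Lef1 region nearest to a start, 0.1 kb away, was called only immobilized (87.9%). The region at the start of Ctnnb1, which encodes beta-catenin, ranked 12.8%, 20.7% and 17.0%, and those of Tcf7 and Tcf7l1 17.6%, 24.9% and 25.1%, and 7.02%, 4.27% and 9.07%. Axin2 had 4, 5 and 5 regions. Its start ranked 14.4% at day 0, 14.2% immobilized and 9.02% non-immobilized, 2 further regions were called in both day 7 libraries (45.1% to 81.1%) and 2 only at day 0 (80.8% and 88.7%). Beyond the start, Ctnnb1 had 2, 3 and 4 regions in all, with the day 7 libraries adding different ones: 49.7% and 88.5% only immobilized, 50.4% and 88.6% only non-immobilized, the first with a weaker summit in the whole immobilized list.

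Lef1, a TCF/LEF factor that is also a canonical target, had 2, 5 and 3 regions. A region 24.9 kb upstream was absent at day 0 and ranked 34.6% immobilized and 89.8% non-immobilized, and 2 were called only immobilized (87.9% and 97.7%). Tcf7l2 had 7, 10 and 10, with 6 common to all, 2 in both day 7 libraries and 2 only immobilized (82.6% and 93.0%). Tcf7l1, which mostly represses targets, had 11, 9 and 12, with 6 common to all and 3 only non-immobilized (70.9%, 81.0% and 85.7%), of which all but the second had a weaker summit in the whole immobilized list. Tcf7 had 4, 3 and 3.

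The first comparison set the day 7 libraries against each other, which is the contrast of non-immobilized and immobilized cells. Regions called in 1 of them alone numbered 55 non-immobilized and 53 immobilized, and 118 were called in both. The non-immobilized share was 50.9% (41.1 to 60.7), against 48.3% over all genes. The ligands lay on the immobilized side, with 10 regions only non-immobilized and 19 only immobilized (34.5%, 17.9 to 54.3). The inhibitors lay on the other side with 13 and 6 (68.4%, 43.4 to 87.4), and the receptors (18 and 16) and effectors (13 and 11) were nearly even. The ligand and inhibitor intervals overlap, each contains the 48.3% of all genes, and the difference between them was not tested. Between the same libraries keratinocyte markers had 1 region only non-immobilized and 37 only immobilized, and endothelial markers 46 and 11, and the part of such cells in the ligand and inhibitor counts was not tested.

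A gene is said to lean to a library when it had at least 2 more one-library regions there. Towards the non-immobilized library leaned 10 of the Wnt genes with a region (21.7%, against 6.2% of all genes): Fzd2, Fzd4, Fzd5, Fzd6, Lrp5, Ror1, Frzb, Dkk2, Dkk3 and Tcf7l1. Towards the immobilized library leaned 7 (15.2%, against 7.12%): Wnt3, Wnt3a, Wnt10a, Fzd10, Lrp6, Ror2 and Lef1. Since a gene with many regions can lean more easily, the shares among genes with 4 or more regions are closer, at 23.3% against 15.5% and 20.0% against 16.6%. Of the 17 ligands with a region 0 leaned to the non-immobilized library, against 6.2% of all genes. Of the 7 inhibitors with a region 0 leaned to the immobilized one, against 7.12%. In sets this small, counts of 0 lie near the shares of all genes. Of the 55 regions only in the non-immobilized library, 28 had a summit in the whole immobilized list that scored below the limit. The non-immobilized list was not shortened, so that no such check exists for the 53 regions of the other direction. With the 28 regions set aside the counts were 27 and 53 (33.8% non-immobilized, against 33.5% over all genes), 7 of the 10 ligand regions and 4 of the 13 inhibitor regions being among those dropped, and with the lists as deposited no Wnt gene leaned to the non-immobilized library, as 1.0% of all genes did. Fzd2, Fzd5, Fzd6 and Dkk3 then had more regions immobilized, by 1 or 2. The direction for Ror1 turned to the immobilized side (by 4 regions) when a region was given to the gene that holds it, and those of Ror1 and Lrp6 turned, by 1 region each, among the better-scoring 50% of summits.

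The second comparison, non-immobilized cells against day 0, had 57 regions only non-immobilized, 43 only at day 0 and 116 in both. The non-immobilized share was 57.0% (46.7 to 66.9) against 51.9% over all genes. Towards the non-immobilized library leaned 8 genes (17.8%, against 8.57%): Wnt2b, Wnt7b, Fzd10, Sfrp1, Frzb, Dkk3, Ctnnb1 and Tcf7l2. Towards day 0 leaned 4 (8.89%, against 7.64%): Wnt4, Wnt9a, Fzd9 and Ror1. Among genes with 4 or more regions the shares were 23.3% against 21.1% and 13.3% against 18.8%, so that they lay near those of all genes. Effectors had 12 regions only non-immobilized and 5 only at day 0 (70.6%, 44.0 to 89.7), and inhibitors 11 and 5 (68.8%, 41.3 to 89.0). Both intervals contain the 51.9% of all genes. Ligands (15 and 14) and receptors (18 and 19) were even. Of the 57 regions, 4 had a weaker summit in the whole day 0 list. Among the better-scoring 50% of summits Fzd9, Fzd10 and Frzb turned direction by 1 region each, as Dkk3 did with the lists as deposited.

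The third comparison, immobilized cells against day 0, had 63 regions only immobilized, 51 only at day 0 and 108 in both, an immobilized share of 55.3% (45.7 to 64.6) against 53.4% over all genes. Towards the immobilized library leaned 12 genes (26.1%, against 9.48%), of which 7 are ligands: Wnt3, Wnt3a, Wnt5b, Wnt7b, Wnt9b, Wnt10a and Wnt16, beside Fzd10, Ror2, Sfrp1, Lef1 and Tcf7l2. Towards day 0 leaned 9 (19.6%, against 7.32%), of which 5 are receptors: Fzd2, Fzd4, Fzd6, Lrp5 and Ror1, beside Wnt4, Wnt9a, Dkk2 and Tcf7l1. Among genes with 4 or more regions the shares were 30.0% against 22.3% and 23.3% against 17.8%. Of the 7 ligands, Wnt3a, Wnt9b and Wnt16 had fewer than 4 regions, and no share of ligands was computed at that limit. Between these libraries keratinocyte markers had 42 regions only immobilized and 3 only at day 0, and endothelial markers 29 and 16. The part of such cells in the Wnt counts was not tested. The ligands had 26 regions only immobilized and 16 only at day 0 (61.9%, 45.6 to 76.4), and the receptors 18 and 21 (46.2%, 30.1 to 62.8). Both intervals contain the 53.4% of all genes. A weaker summit was present in the whole day 0 list for 5 of the 63 regions, and in the whole immobilized list for 19 of the 51. With the lists as deposited Wnt4, Fzd2, Fzd6 and Tcf7l1 turned to the immobilized side, by 1 or 2 regions, and among the better-scoring 50% of summits Wnt7b turned to day 0, by 1. The comparisons share libraries, so that a gene can appear in more than 1 of them through the same regions: the 6 regions by which Fzd10 exceeded day 0 include the 4 by which it exceeded the non-immobilized library.

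**Figure D4:**
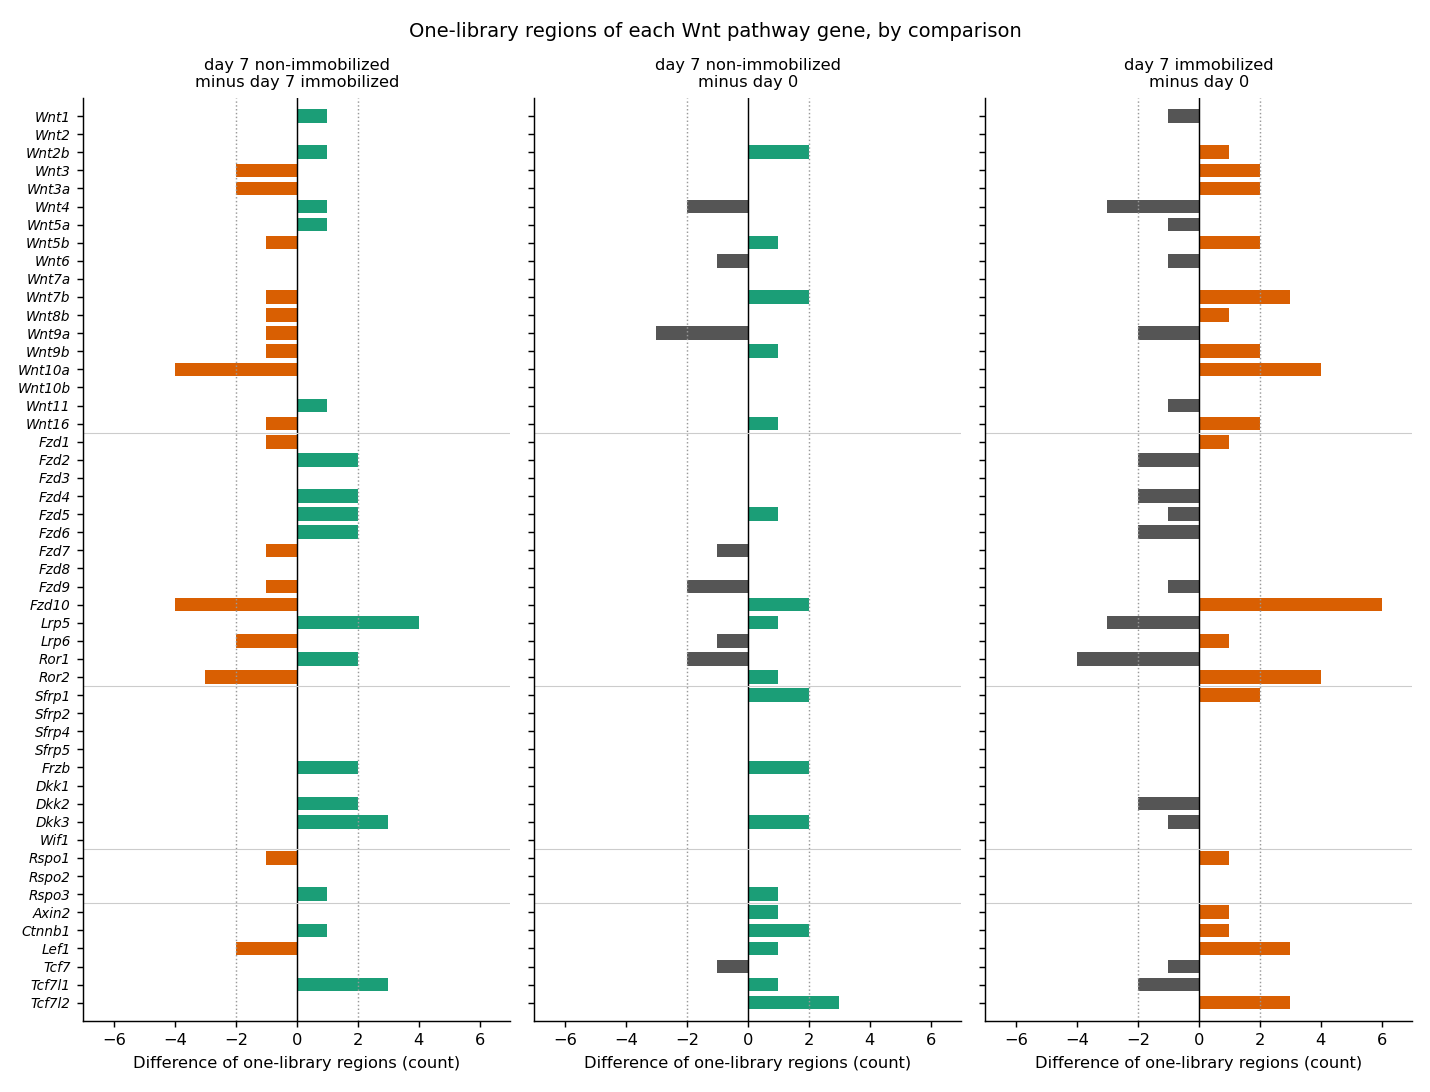
Difference in one-library regions (horizontal axis, count) for each of the 50 genes, ordered by role, in the 3 comparisons; dotted lines mark 2 regions. Fzd10 has the longest bar, 6 regions more immobilized than at day 0. In the comparison of the day 7 libraries, 3 of the 9 secreted inhibitors point to the non-immobilized side, 0 to the immobilized side, and 6 are even.

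**Figure D5:**
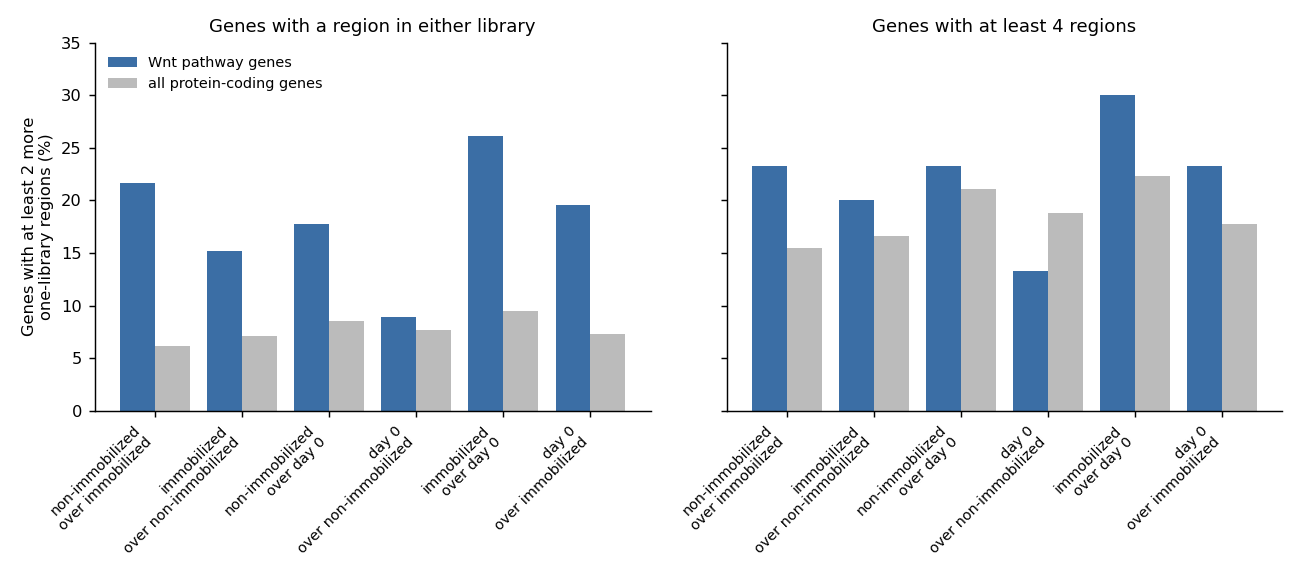
Share of genes leaning to each library (vertical axis, %) among the Wnt signalling genes and among all protein-coding genes, for genes with any region (left) and with 4 or more regions (right). On the left the Wnt shares run from 8.89% to 26.1% against 6.2% to 9.48%, and on the right the gap narrows, with the day 0 side of the second comparison lower for Wnt genes (13.3% against 18.8%).

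The other genes of the pathway, a list of 54 regulators, targets and planar polarity genes, gave 53 genes on the autosomes and 318 regions, with 199, 224 and 213 at day 0, immobilized and non-immobilized. Regions called in every library made up 39.6%. A difference of at least 3 one-library regions was the limit for naming these genes. Here and in the next paragraph, counts are out of the 52 genes of the list with a region. Percents are those of all genes with a region, which had a median of 2 regions. A gene with many regions passes such a limit more easily, and no share among genes with 4 or more regions was computed at this limit. Between the day 7 libraries, 2 exceeded it towards the non-immobilized library (1.91% of all genes did): Tle3, a Groucho co-repressor, with 16 immobilized and 21 non-immobilized regions, and Vangl1, a planar polarity gene, with 5 and 8. Towards the immobilized library it was 8 of the 52 (2.44% of all genes): Wls, Sostdc1, Lgr4, Rnf43, Apc, Celsr1, Daam1 and Nfatc1. Wls, which carries Wnt proteins to the cell surface, had 5 immobilized and 2 non-immobilized regions, and Sostdc1, a secreted Wnt and BMP antagonist, had 6 and 2. Rnf43, a ubiquitin ligase that removes Frizzled receptors, had 4 and 1.

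Against day 0, the non-immobilized library exceeded the limit for 7 of these genes (3.36% of all genes did), namely Lgr6, Ryk, Bcl9l, Tle3, Vangl1, Celsr1 and Nfatc1. Day 0 exceeded it for 5 (2.57%), namely Notum, Btrc, Prickle2, Daam1 and Camk2d. The immobilized library exceeded day 0 for 6 (3.83%), namely Sostdc1, Lgr6, Rnf43, Ryk, Celsr1 and Nfatc1, and day 0 exceeded it for 3 (2.45%), namely Notum, Btrc and Prickle2. Lgr6, an R-spondin receptor, had 1, 5 and 5 regions and Celsr1, a planar polarity cadherin, 1, 8 and 5. Notum, an enzyme that inactivates Wnt proteins, had 5, 1 and 2, and Btrc, which marks beta-catenin for breakdown, had 7, 2 and 4.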

How the data were processed

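Accessible chromatin was measured by Omni-ATAC, per the labels' protocols, in 3 libraries, 1 for each group; groups come from the sample titles. Build mm10, the aligner Bowtie2 2.3.4.1 and the peak caller MACS2 2.1.2 are named, per the submitters' processing notes, beside edgeR 3.26.5, bedtools 2.28.0, SAMtools 1.2, Picard, cutadapt, Trim Galore and FastQC, with no parameters. A shift of reads for the transposase is not stated in them. The deposited lists hold 1 bp summits on chromosomes 1 to 19, called per library, with the authors' score, which the file layout gives as −log10 of a significance value (p or q, not stated) and which served here for ranking within each list. The deposited run statistics give counts of reads, the duplicate fraction and the aligned percent, per the file headers. Kept pairs were computed as trimmed pairs times alignment rate times the share not duplicated, an upper estimate.

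Lists were cut to 47912 summits, and summits were widened by 250 bp on each side and merged where windows overlapped. A region was called in a library that had a summit in it, and went to whichever protein-coding gene had an end closest to its best-ranked summit, up to 50 kb away. Gene ends came from the RefSeq gene table of GRCm38.p6, the assembly of mm10. Starts and strands came from the promoter table of the same build, which matched 36 of the 50 genes. A weaker summit means one of the whole deposited list whose window overlaps the region. The members, gene lists and settings were chosen with earlier results of these data known. Genes described region by region are those that leaned in any pair, those with the most regions of each role, and Axin2, Lef1, Ctnnb1 and Wnt5a. Other pathway genes were named at a difference of 3. Myeloid, skeletal muscle, and smooth muscle and pericyte marker lists had 12, 13 and 15, 43, 32 and 32, and 44, 33 and 35 regions at day 0, immobilized and non-immobilized. Region building and gene distances were tested on simulated data, where 4000 of 4000 regions were recovered. Software was scipy 1.17.1, pandas 2.3.3, numpy 2.4.6 and matplotlib 3.10.9 under Python 3.11.15.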

Additional observations from a re-analysis of the deposited data

How the results depend on the processing

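The choice of list length moved the most values, and mostly those of all genes (in brackets) with them. With the lists as deposited, the non-immobilized share of one-library regions against the immobilized library was 20.3% (19.4%), and the immobilized share against day 0 was 72.5% (73.1%). With the better 50% of one list set against the other's whole list these shares were 40.0% (35.2%) and 90.9% (72.7%), on few regions. With the equal-length list against the whole list, an alternative chosen after seeing the data, the first was 33.8% (33.5%). The share called in every library was 51.6% (57.7%) with the better 50% of each list and 31.0% (38.2%) for regions over 1 kb from a gene end. In all, 31 alternative values of the shares stayed within the counting interval and 7 moved.

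Counts of leaning genes that moved by over 1.5 times follow, with the share of all genes in brackets. In the day 7 pair the numbers leaning to the non-immobilized library were 3 (1.91%) at a difference of 3, 0 (1.0%) with lists as deposited, 4 (3.08%) with the better 50%, 0 (0.0322%) with the better 50% against the whole list, 4 (4.5%) at a half-width of 500 bp, 5 (2.54%) within 10 kb and 1 (2.05%) with the equal-length list against the whole list. Those leaning to the immobilized library were 3 (2.44%), 21 (22.5%), 2 (2.69%) and 0 (0.258%) under the first 4 of these and 3 (2.77%) within 10 kb. Against day 0, leaning to the non-immobilized library were 1 (3.36%), 5 (6.89%), 1 (4.12%) and 0 (1.11%) under the same 4, 4 (3.87%) within 10 kb and 5 (10.5%) without regions near a gene end, and leaning to day 0 were 1 (2.57%), 8 (9.88%), 2 (3.51%) and 0 (0.329%) under the 4. In the third pair, leaning to the immobilized library were 6 (3.83%) at a difference of 3, 2 (3.58%) with the better 50%, 1 (0.915%) with the better 50% against the whole list and 4 (4.18%) within 10 kb. Leaning to day 0 were 3 (2.45%), 2 (2.8%), 1 (3.27%) and 0 (0.0773%) under the 4, 5 (5.73%) at 500 bp, 5 (2.89%) within 10 kb and 5 (3.46%) with the equal-length list against the whole list. The cause of these moves was not tested. Stricter settings leave fewer regions, while the lists as deposited hold more summits of day 0 and of the immobilized library. Of the 50 leaning differences of single genes, 0 held under all 10 settings. That of Wnt16 between the immobilized library and day 0 held under 9.

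Single genes reversed as follows. With the lists as deposited, the non-immobilized minus immobilized difference became -2 for Fzd2 and Dkk3 and -1 for Fzd5 and Fzd6; that of non-immobilized minus day 0 became -1 for Dkk3; and that of immobilized minus day 0 became 2 for Fzd2 and 1 for Wnt4, Fzd6 and Tcf7l1. With the better 50%, the first became 1 for Lrp6 and -1 for Ror1, the second 1 for Fzd9 and -1 for Fzd10 and Frzb, and the third -1 for Wnt7b. For Ror1 the first was -5 within 100 kb and -4 when regions went to the gene that holds them, and for Tcf7l1 the third was 1 within 10 kb. Most one-library regions held weak ranks, and the reads behind each region are not known from the lists. No paired analysis was possible because each group has 1 library.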

Other observations

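Wnt ligand genes often lie side by side, and neighbouring pairs differed in how their regions were spread. The Wnt3 and Wnt9b pair on chromosome 11, whose gene models overlap by 1.1 kb, had 1 region at day 0, 5 immobilized and 2 non-immobilized, and 0 of its 6 regions were common to all libraries. The Wnt6 and Wnt10a pair on chromosome 1, 6.7 kb apart, had 9, 12 and 8, with 8 of 13 common to all. All 4 of its regions called only in the immobilized library were assigned to Wnt10a. The Wnt3a and Wnt9a pair, 16.1 kb apart on chromosome 11, had 8, 8 and 5, with 5 of 10 common to all, and the Wnt1 and Wnt10b pair, 11.7 kb apart on chromosome 15, had 3, 2 and 3. These pairs were described after their values were seen, and a region between neighbours was given to the nearer gene end.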
